A study of Homo sapiens with 8 samples.

Results

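Progression from G2 into mitosis was examined through 10 genes of the kinase switch that drives it: CDK1, CCNB1, CCNB2, CDC25B, CDC25C, WEE1, PKMYT1, SFN, GADD45A and GADD45B. They were taken by gene symbol from the 58302 genes of the count table, and each symbol occurred on 1 line. RNA came from HCT116, an established line of human colon cancer cells, in its p53+/+ form with p53 intact. The 4 MANIO cultures received 1 µM of MANIO, a compound known here only by that code name, and the 4 DMSO cultures received the solvent alone. All 8 were collected after 24 hours, and the comparison addressed whether MANIO switches on transcription of the p53 pathway. Every value therefore describes 1 cell line, 1 dose and 1 time.

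CDK1 is the kinase that starts mitosis, and it is active only when bound to cyclin B. The kinases WEE1 and PKMYT1 hold the complex inactive by phosphorylating CDK1, and the CDC25 phosphatases remove those phosphates. After DNA damage, p53 is known to induce SFN, whose 14-3-3 protein sequesters cyclin B-CDK1 in the cytoplasm, and GADD45A, whose protein disturbs the CDK1-cyclin B complex. CCNB1, CCNB2, CDC25C and CDK1 are textbook targets of repressor complexes that act downstream of p53 and p21.

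Total counts ran from 27945196 to 32509020 per library, above the approximate number of raw reads per sample stated in the labels, for a reason not known. The mitochondrial share of counts was 7.48% in DMSO replicate 1, against 4.82% to 5.21% in the other DMSO libraries and 6.70% to 7.62% in MANIO. Epithelial markers (EPCAM, keratin, cadherin and claudin genes, 6 in all) summed to 3537 to 3785 counts per 1e6 counts (CPM) in DMSO and 4299 to 4808 CPM in MANIO, and 4 of the 6 rose. The 5 leukocyte markers summed to at most 0.443 CPM in any library, with none at 0 in all of them. The 6 markers of stroma and endothelium summed to 21.9 to 27.2 CPM in DMSO and 39.4 to 46.9 CPM in MANIO. Most of that sum was COL1A1, and LUM was at 0 in every library. The part of these differences in the results was not tested.

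All 10 genes were abundant enough to be tested, with 438 to 19148 counts in every library. The 2 p53-responsive inhibitors SFN and GADD45A rose, CDK1 rose slightly, and both cyclin B genes, both CDC25 genes and WEE1 fell by less than 1.5-fold. PKMYT1 and GADD45B did not pass the test. Thus 3 of the 10 were higher in MANIO, where 27.8% of the 15712 genes tested were higher, and 5 were lower, where 26.8% of the genes tested were lower. A call means an adjusted p under 0.05 in edgeR's quasi-likelihood test over all genes tested. The MANIO libraries lay wholly above the DMSO libraries for 3 genes (24.7% of all genes tested) and wholly below them for 6 (23.7%). Against a limit of 1.2-fold, SFN and GADD45A remained higher (2 genes, 14.7% of all tested) and CCNB1 and WEE1 remained lower (2 genes, 11.6%). The median log2 fold change of the 10 genes was -0.20, and that of all genes tested was 0.0043. In bulk RNA, fewer cells in G2 or mitosis and less transcript per such cell cannot be told apart.

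**Figure D1:**
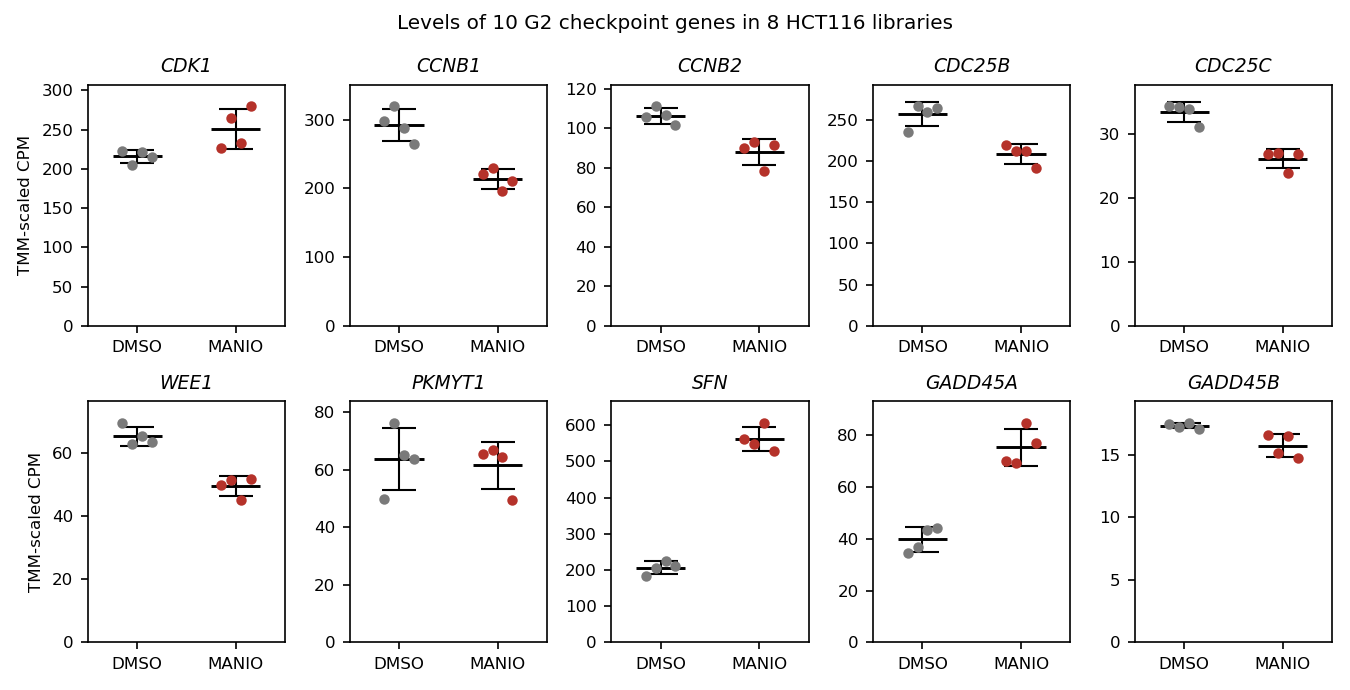
Level of each of the 10 genes as TMM-scaled CPM (vertical axes start at 0), with 1 point per library in the order of replicates 1 to 4, a bar at the group mean and whiskers of 1 SD (n = 4). The groups overlap for PKMYT1 alone, and the widest separation is that of SFN, from 183 to 226 CPM in DMSO and from 528 to 606 CPM in MANIO.

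SFN encodes 14-3-3 sigma, the epithelial 14-3-3 protein. DMSO replicates 1 to 4 held 183, 206, 226 and 212 CPM of SFN, and MANIO replicates 1 to 4 held 561, 548, 606 and 528 CPM. The lowest MANIO library was more than 2-fold above the highest DMSO library. SFN went from 207 ± 17.6 to 561 ± 33 CPM (SD, n = 4 each), a 2.71-fold rise with a log2 fold change of 1.44 (SE 0.0668; edgeR adjusted p = 3.2e-10). In size of change it stood above 97.1% of all genes tested. The gene (ENSG00000175793) consists of a single exon on chromosome 1 at 26863138 to 26864457 of GRCh38, on the forward strand, and no other annotated exon overlaps it.

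GADD45A belongs to a family of small stress-induced proteins. Its DMSO libraries held 34.5, 36.9, 43.4 and 44.1 CPM and its MANIO libraries 70.1, 69.3, 84.6 and 76.8 CPM. Every MANIO library lay above every DMSO library, and the mean went from 39.7 ± 4.76 to 75.2 ± 7.12 CPM (SD, n = 4 each). That is a 1.89-fold rise, with a log2 fold change of 0.92 (SE 0.0856; edgeR adjusted p = 5.5e-07). GADD45A (ENSG00000116717) lies on chromosome 1 at 67685061 to 67688338.

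Its relative GADD45B, better known for its induction by NF-kB and TGF-beta signalling, was less abundant and did not rise. DMSO replicates 1 to 4 held 17.4, 17.2, 17.5 and 17.1 CPM of GADD45B, and the MANIO libraries held 16.6, 15.1, 16.5 and 14.7 CPM. All 4 MANIO libraries lay below all 4 DMSO libraries, whose coefficient of variation was 1.14%, but the difference did not pass the test (log2 fold change -0.14, SE 0.0658; edgeR adjusted p = 0.088). GADD45B (ENSG00000099860) lies on chromosome 19 at 2476122 to 2478259. Within a library, the log2 ratio of GADD45A to GADD45B counts went from 1.19 ± 0.178 to 2.25 ± 0.142, a 2.09-fold shift. The exact two-sided permutation p was 0.0286, the smallest that 4 against 4 can give. Adjusted over the 7 pairs of genes compared it was 0.05, at the threshold and not under it. At the smallest possible p, the adjusted value depends on how many pairs reached it and not on the size of the shift. With 1 library left out at a time the adjusted exact permutation p ran from 0.04 (without DMSO replicate 2) to 0.067 (without MANIO replicate 1 or 4).

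Of the mitotic kinase and its cyclins, the kinase moved one way and the cyclins the other. CDK1 was at 223, 204, 222 and 215 CPM in DMSO and at 227, 265, 233 and 280 CPM in MANIO. The groups did not overlap, although MANIO replicates 1 and 3 lay close to the DMSO libraries and replicates 2 and 4 well above them. CDK1 went from 216 ± 8.52 to 251 ± 25.3 CPM (SD, n = 4 each), a rise of 1.16-fold with a log2 fold change of 0.22 (SE 0.0665; edgeR adjusted p = 0.012). With 1 library left out at a time, the edgeR adjusted p of CDK1 ran from 0.0047 to 0.044, and against the 1.2-fold limit it was 0.83.

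Cyclin B1, encoded by CCNB1, is the main partner of CDK1 and shuttles between cytoplasm and nucleus. CCNB1 was at 297, 319, 288 and 264 CPM in DMSO and at 221, 229, 196 and 210 CPM in MANIO. The highest MANIO library stayed below the lowest DMSO library, and the mean went from 292 ± 22.9 to 214 ± 14.6 CPM (SD, n = 4 each). Its log2 fold change of -0.45 (SE 0.0653; edgeR adjusted p = 3.7e-05) was the largest fall among the 10 genes.

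Cyclin B2, a second B-type cyclin found mostly at the Golgi, is encoded by CCNB2. CCNB2 was at 105.5, 111, 106.5 and 102 CPM in DMSO and at 89.9, 93.0, 78.5 and 91.3 CPM in MANIO. MANIO replicate 3 was lowest for both cyclin genes, and the groups of CCNB2 did not overlap. The mean of CCNB2 went from 106 ± 3.92 to 88.2 ± 6.58 CPM (SD, n = 4 each), with a log2 fold change of -0.27 (SE 0.0598; edgeR adjusted p = 0.0015; 0.50 against the 1.2-fold limit).

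The ratios within each library, which need no scaling between libraries, gave the same order. The log2 ratio of CCNB1 to CDK1 counts went from 0.43 ± 0.149 in DMSO to -0.23 ± 0.152 in MANIO (SD, n = 4 each). The cyclin thus stood 1.58-fold lower relative to the kinase, and no MANIO library overlapped the DMSO libraries. For CCNB2 over CDK1 the ratio was 1.4-fold lower in MANIO, and for CCNB1 over CCNB2 it was 1.13-fold lower, again with no overlap. Each of these 3 pairs had an exact two-sided permutation p of 0.0286 (0.05 after Benjamini-Hochberg adjustment over the 7 pairs). The adjusted values lay at the threshold and did not pass it. Since 0.0286 is the smallest p possible, they depend on how many pairs reached it and not on the size of the shifts. The 3 ratios are built from the same 3 genes and are not independent. With 1 library left out at a time, the adjusted exact permutation p of each was 0.04 without DMSO replicate 2, and at most 0.10 for CCNB1 over CCNB2 and 0.067 for the other pairs, without MANIO replicate 1. CDK1 (ENSG00000170312) lies on chromosome 10 at 60778331 to 60794852, CCNB1 (ENSG00000134057) on chromosome 5 at 69167010 to 69178245 and CCNB2 (ENSG00000157456) on chromosome 15 at 59105078 to 59125045, all on the forward strand.

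**Figure D2:**
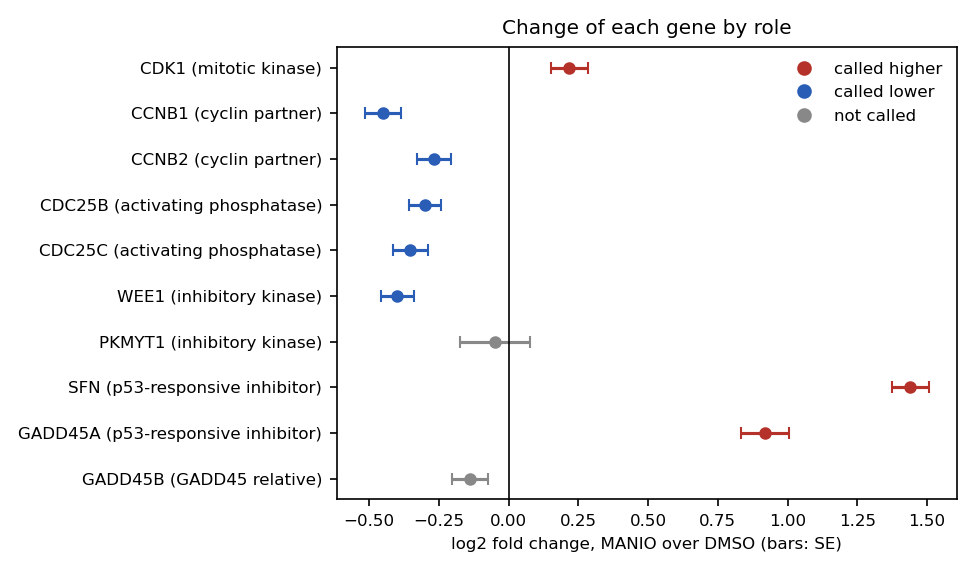
Log2 fold change of each gene in MANIO over DMSO (horizontal axis) with its SE, derived from the F statistic, ordered by role and coloured by call. SFN (1.44) and GADD45A (0.92) stand to the right, CDK1 (0.22) is slightly above 0, and the 5 genes called lower lie between -0.45 and -0.27.

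Both CDC25 phosphatase genes fell. CDC25B encodes the phosphatase that first activates cyclin B-CDK1, at the centrosome. CDC25B was at 235, 266, 260 and 264 CPM in DMSO and at 219, 211, 211.5 and 192 CPM in MANIO. DMSO replicate 1 was the lowest of its group and still above all MANIO libraries. The mean went from 256 ± 14.4 to 208 ± 11.8 CPM (SD, n = 4 each; log2 fold change -0.30, SE 0.0579; edgeR adjusted p = 0.00048, and 0.29 against the 1.2-fold limit). CDC25B (ENSG00000101224) lies on chromosome 20 at 3786772 to 3806121.

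CDC25C encodes the phosphatase that checkpoint kinases mark for binding by 14-3-3 proteins. CDC25C was at 34.4, 34.3, 34.0 and 31.1 CPM in DMSO and at 26.9, 27.1, 23.9 and 26.9 CPM in MANIO. In each group 3 libraries agreed closely and 1 was lower, and the groups did not overlap. The mean went from 33.4 ± 1.56 to 26.2 ± 1.55 CPM (SD, n = 4 each; log2 fold change -0.35, SE 0.0631; edgeR adjusted p = 0.00025, and 0.093 against the 1.2-fold limit). In CDC25C (ENSG00000158402; chromosome 5, 138285265 to 138338355, reverse strand) 8.78% of the exonic bases lie in exons of FAM53C on the other strand, and FAM53C rose (log2 fold change 0.46). The library kit does not mark strand, so reads from those shared bases cannot be assigned. The log2 ratio of CDC25B to CDC25C was 2.94 ± 0.129 in DMSO and 2.99 ± 0.131 in MANIO, a difference of 0.05 within the spread of the libraries (exact two-sided permutation p = 0.571, adjusted 0.571).

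Of the 2 inhibitory kinase genes, WEE1 fell. WEE1 encodes the nuclear kinase that phosphorylates CDK1. WEE1 was at 69.4, 62.8, 65.2 and 63.4 CPM in DMSO and at 49.9, 51.3, 45.0 and 51.6 CPM in MANIO. The groups were separated by more than the range of either, and the mean went from 65.2 ± 2.97 to 49.4 ± 3.05 CPM (SD, n = 4 each). Its log2 fold change was -0.40 (SE 0.0599; edgeR adjusted p = 5e-05), a size close to that of CCNB1. WEE1 (ENSG00000166483) lies on chromosome 11 at 9573681 to 9593457. The log2 ratio of CDC25C, the activating enzyme, to WEE1, the opposing one, was -0.96 ± 0.0723 in DMSO and -0.91 ± 0.0205 in MANIO. This difference of 0.05 did not pass, and the groups overlapped (exact two-sided permutation p = 0.257, adjusted 0.30). Without DMSO replicate 2 the difference was 0.08, with an adjusted exact permutation p of 0.04. The unadjusted p was then 0.0286, the smallest possible. In the other 7 fits with 1 library left out the adjusted p ran from 0.30 to 0.63.

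PKMYT1 encodes the membrane-bound kinase MYT1, which phosphorylates CDK1 in the cytoplasm. PKMYT1 was at 49.8, 76.3, 65.0 and 63.7 CPM in DMSO and at 65.4, 66.7, 64.6 and 49.4 CPM in MANIO. It was the only one of the 10 genes whose groups overlapped, with 1 low library in each group. The mean was 63.7 ± 10.9 CPM in DMSO and 61.5 ± 8.14 CPM in MANIO (SD, n = 4 each), and the log2 fold change of -0.05 (SE 0.126; edgeR adjusted p = 0.76) turned positive without DMSO replicate 2 (0.05) or without MANIO replicate 4 (0.04). PKMYT1 (ENSG00000127564; chromosome 16, 2968024 to 2980539, reverse strand) shares 31.6% of its exonic bases with PAQR4 and KREMEN2 on the other strand. PAQR4 fell (log2 fold change -0.54) and KREMEN2 rose (0.79), which makes the PKMYT1 count uncertain. The log2 ratio of WEE1 to PKMYT1 went from 0.05 ± 0.315 to -0.31 ± 0.255. This difference of -0.36 did not pass, and the groups overlapped (exact two-sided permutation p = 0.114, adjusted 0.16). Without DMSO replicate 1 it was -0.21.

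**Figure D3:**
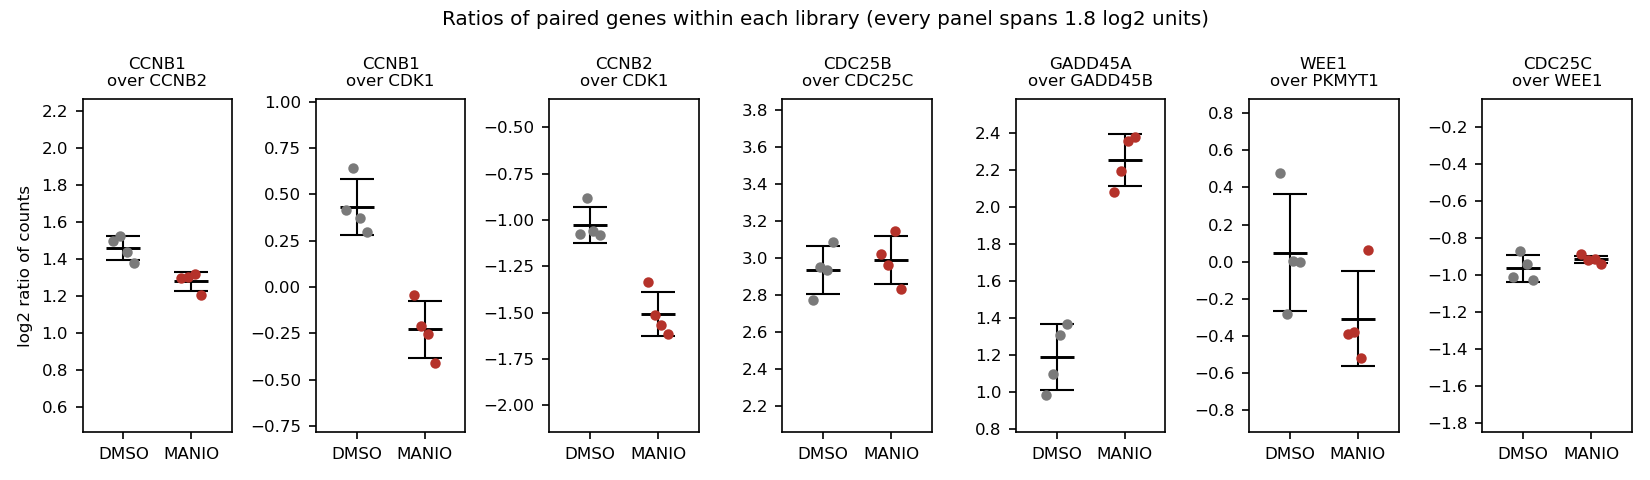
Log2 ratio of the counts of paired genes within each library, with 0.5 added to each count; points are replicates 1 to 4, bars group means and whiskers 1 SD (n = 4). The MANIO points lie below the DMSO points for CCNB1 over CCNB2, CCNB1 over CDK1 and CCNB2 over CDK1, above them for GADD45A over GADD45B, and among them for the other 3 pairs.

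The start regions of the genes that are textbook targets of G2/M repression are shown because the 2 cyclin genes and CDC25C fell while CDK1 rose. RefSeq windows (GRCh38.p14) from 250 bases before to 50 after a start were listed for 7 of the 10 genes, and not for WEE1, PKMYT1 and GADD45A. They were searched on both strands for CCAAT, the letters bound by the factor NF-Y, and for TTTGAA, a form of the cell cycle homology region. CCAAT occurs in 34.6% of all 35116 windows, 2 or more copies in 10.7%, TTTGAA in 15.2%, and CCAAT together with TTTGAA in 5.90%. Where a gene has several listed starts, the most downstream one was used, and positions count back from it. The segments, 5′ to 3′ on the strand of the gene, carry the element nearest the start in capitals, with ATTGG where CCAAT lies on the other strand:
CCNB1 CCAAT, chr5:69167083-69167111, bases -55 to -51: gccacgaacaggCCAATaaggagggagca
CCNB2 CCAAT, chr15:59105080-59105108, bases -54 to -50: gcgcagggccgcCCAATggggcgcaagcg
CCNB2 TTTGAA, chr15:59105105-59105134, bases -29 to -24: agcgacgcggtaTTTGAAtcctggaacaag
CDC25C CCAAT, chr5:138331873-138331901, bases -85 to -81: gcgcgcgcggagATTGGctgacgcagctt
CDC25C TTTGAA, chr5:138331817-138331846, bases -30 to -25: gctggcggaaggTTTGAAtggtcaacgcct
CDK1 CCAAT, chr10:60778420-60778448, bases -46 to -42: acgggctacccgATTGGtgaatccggggc
CDK1 TTTGAA, chr10:60778453-60778477, bases -13 to -8: tagcgcggtgagTTTGAAactgctc

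CCNB2, CDC25C and CDK1 thus share both elements in their windows, with TTTGAA nearer the start than CCAAT in each. CCNB1 holds 2 copies of CCAAT and no TTTGAA in its window. CDC25B, which also fell, holds no TTTGAA in any of its 4 windows. However, 1 of them holds CCAAT at bases -73 to -69 and TTCGAA, also searched as a form of the homology region, at bases -38 to -33. Further forms of that region were not searched, so a window without TTTGAA may still hold one. The window of CDK1 also holds the E2F-type letters TTTCGCGC, which occur in 0.515% of all windows, at bases -128 to -121. Whether genes with these letters changed differently was not tested. The window of SFN holds 1 CCAAT, downstream of the start, and that of GADD45B holds 2. The E2F-type letters TTTGGCGC were found in no window of the 7 genes. The p53 half-site was found, among them, only in CDC25C and in 6.63% of all windows. Sequence outside the windows was not searched, and GADD45A had no window, so p53 sites elsewhere in these genes are not covered. TTCGAA was found only in 1 of the 4 windows of CDC25B, and in 1.45% of all windows. These are matches of letters and not binding sites. Among the 594 tested genes with CCAAT and TTTGAA in 1 window, 41.9% were called lower and 20.7% higher, with a median log2 fold change of -0.12. Among all 10645 tested genes with a window the shares were 30.3% and 27.3% and the median was -0.02. This split by promoter letters was added after the members' values were known.

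Levels were compared between genes per kb of merged exons. In DMSO the order was SFN (157 ± 13.3 CPM per kb), CCNB1 (114 ± 8.95), CDC25B (59.4 ± 3.34), CDK1 (55 ± 2.17), CCNB2 (37.9 ± 1.4), GADD45A (19.2 ± 2.30), PKMYT1 (12.7 ± 2.16), CDC25C (10.0 ± 0.468), GADD45B (8.10 ± 0.0922) and WEE1 (7.06 ± 0.322; SD, n = 4 throughout). The libraries of CDC25B and CDK1 overlapped on this scale, as did those of PKMYT1 and CDC25C. In MANIO, SFN stood at 425 ± 25.0 CPM per kb, ahead of CCNB1 at 83.6 ± 5.69. CDK1 (63.9 ± 6.43 CPM per kb) had passed CDC25B (48.3 ± 2.73), and GADD45A (36.4 ± 3.44) had passed CCNB2 (31.5 ± 2.35), with no overlap within either pair of genes. At the lower end, CDC25C (7.85 ± 0.464 CPM per kb) and GADD45B (7.36 ± 0.439) overlapped in MANIO, and WEE1 was lowest at 5.35 ± 0.331. The merged length counts exons of all annotated transcripts, so the level of a gene with unused exons is understated.

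Profiles over the 8 libraries were compared by the root mean square (RMS) difference of centred log2 CPM, among 12097 other genes. The profile nearest to SFN was that of the transporter gene ABCG4 (RMS 0.0504), followed by the keratin gene KRT15 (0.0667) and the tetraspanin gene CD82 (0.0691). Nearest to CCNB1 were MCM3, a subunit of the replicative helicase (RMS 0.0203), the chaperone gene HSP90AB1 (0.0353) and MTHFD1L (0.0360). Nearest to CDK1 were the GTPase gene RAB21 (RMS 0.0226), VMA21 (0.0272) and LARP4 (0.0301), none of them a mitotic gene. Nearest to GADD45A were the homeobox gene HOXB6 (RMS 0.0529), LBHD1 (0.0747) and HOXB3 (0.0773). Among the nearest to CCNB2 were CMC2 (RMS 0.0342) and the gamma-tubulin complex gene TUBGCP4 (0.0408), and the nearest to CDC25B were IGFBP2 (0.0175), CAPNS1 (0.0246) and DNAAF5 (0.0275). For CDC25C they were KBTBD4 (RMS 0.0256), ANXA7 (0.0279) and DTL (0.0314), whose product guides the destruction of replication proteins. For WEE1 they were DLG3 (RMS 0.0277), FGD5-AS1 (0.0320) and TCAF1 (0.0343). PKMYT1 was nearest to BRAT1 (RMS 0.0525), CHCHD10 (0.0555) and the replication licensing gene CDT1 (0.0568), and GADD45B to CAMK2G (0.0304), FIS1 (0.0317) and ADD1 (0.0318). None of the 10 genes was among the 3 nearest to another. With 2 groups such likeness mostly reflects a similar size of change.

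The remaining genes of the pathway were followed through 10 lists, 94 genes that could be tested beside the 10. In all, 45 were lower, 15 higher and 34 not called, with a median log2 fold change of -0.12. Of all genes tested, 26.8% were lower and 27.8% higher. Against the 1.2-fold limit the counts were 18 lower and 7 higher, where 11.6% and 14.7% of all genes tested were called. The lists, like the 10 genes, were chosen with earlier results of these data known. Their counts therefore describe these genes and cannot establish an excess over the shares of all genes tested. COL1A1 and the epithelial markers moved with the same contrast, as given above, and their part in these counts was not tested.

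Among genes that activate CDK1, falls prevailed. Of 11, 9 were lower, 0 higher and 2 not called, with a median log2 fold change of -0.40. Over all genes tested the shares were 26.8% lower and 27.8% higher. CCNA2 and CDC25A are counted here and again among the family relatives below, so the 2 lists are not separate. PLK1, the polo kinase that activates CDC25C and marks WEE1 for destruction, fell by 0.62 on the log2 scale, and AURKA, the kinase that activates PLK1, by 0.47. MNAT1, a subunit of the CDK-activating kinase, fell by 0.46 and CKS2, a small CDK1-binding subunit, by 0.40. CDK2 (-0.06) and CDK7 (0.12), the catalytic subunit of the CDK-activating kinase, did not pass.

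Of 4 tested family relatives of the 10 genes, 3 were lower and 1 higher (median log2 fold change -0.31). GADD45G was barely detected, with at most 15 counts in a library, and rose (log2 fold change 1.16). CCNB3, a B-type cyclin of meiosis at 6.0 ± 0.213 CPM in DMSO, fell by 1.13 on the log2 scale, CCNA2, the cyclin of S phase and G2, by 0.44, and CDC25A, the phosphatase that also acts in G1 and S phase, by 0.19. CCNA1 was at 0 in every library and WEE2 had at most 2 counts, so neither was tested. All 6 other 14-3-3 genes were called lower, as were 26.8% of all genes tested. Their median log2 fold change was -0.24, while SFN rose. The 6 were led by YWHAE (-0.58), YWHAQ (-0.26), YWHAZ (-0.31) and YWHAB (-0.21). The falls were smaller in YWHAH (-0.16; edgeR adjusted p = 0.024), whose groups overlapped, and in YWHAG (-0.12; edgeR adjusted p = 0.049). Several 14-3-3 genes have processed pseudogenes, and how the authors counted reads with several matches was not stated.

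Damage signalling genes upstream of CDC25 were mixed. Of 15 tested, 6 were lower, 3 higher and 6 not called (median log2 fold change -0.10). CHEK1, the kinase that phosphorylates CDC25 proteins, fell by 0.37 on the log2 scale, its activator CLSPN by 0.32 and the scaffold gene MDC1 by 0.48. ATM, the apical kinase of the response to double-strand breaks, rose (0.41), as did ATR (0.17) and the clamp subunit gene HUS1 (0.19). Over 10% of the exonic bases overlap other genes in ATR, PLK1, CDK2, CUL1, CCNF, RBBP4, ANAPC13 and ANAPC15 among the list genes named here with values.

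Among genes for the destruction of cyclin B, 9 of 20 were lower, 4 higher and 7 not called (median log2 fold change -0.15). CDC20, which activates the anaphase-promoting complex in mitosis, fell by 0.60 and its inhibitor FBXO5 by 0.49 on the log2 scale. The complex's subunit genes ANAPC15 (-0.91; 27.1% of its exonic bases overlap other genes) and ANAPC11 (-0.60) fell as well. The complex went both ways, since the 4 genes called higher, named after their values were seen, are subunits too: ANAPC13 (0.32), ANAPC2 (0.21), ANAPC5 (0.18) and CDC16 (0.13). Of 5 ligase genes that target WEE1 or CDC25 proteins, BTRC (-0.26), CUL1 (-0.22) and CCNF (-0.27) fell, and SKP1 (-0.07) and FBXW11 (0.02) did not pass. Of 9 genes of the Greatwall kinase and the phosphatase that removes CDK1's marks, 8 did not pass and the catalytic subunit gene PPP2CA fell (-0.30).

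Genes of the protein complexes linked to the promoter elements shown above were lower or not called, with 1 exception. Of 16 genes of the DREAM complex, B-MYB, FOXM1 and NF-Y, 7 were lower, 1 higher and 8 not called (median log2 fold change -0.04). RBL1, the pocket protein p107, fell by 0.64, the MuvB subunit gene LIN52 by 0.67 and the histone-binding subunit gene RBBP4 by 0.32 on the log2 scale. TFDP2 rose (0.31). Of the genes of NF-Y, which binds CCAAT, NFYA (-0.26) and NFYB (-0.39) fell and NFYC (-0.04) did not pass. The MuvB subunit gene LIN54 (-0.04) did not pass. Of 5 tested partners of GADD45 proteins, the kinase gene MAP3K4 (-0.55) and the p38 gene MAPK14 (-0.19) fell, MAP2K3 (0.36) and the sliding clamp gene PCNA (0.47) rose, and MAP2K7 (-0.07) did not pass. For these 5 genes the median log2 fold change (-0.07) and the mean (0.01) differed in sign. Of 5 other tested genes linked to p53, 4 had larger log2 fold changes than SFN. PLK3 rose by 1.63 on the log2 scale beside CDKN1A (2.43), PLK2 (2.25) and BTG2 (2.07), whose roles are not confined to G2. GTSE1, whose protein moves p53 out of the nucleus in G2, fell (-0.29). The median log2 fold change of the 5 was 2.07. RPRM had at most 2 counts in a library and was not tested.

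**Figure D4:**
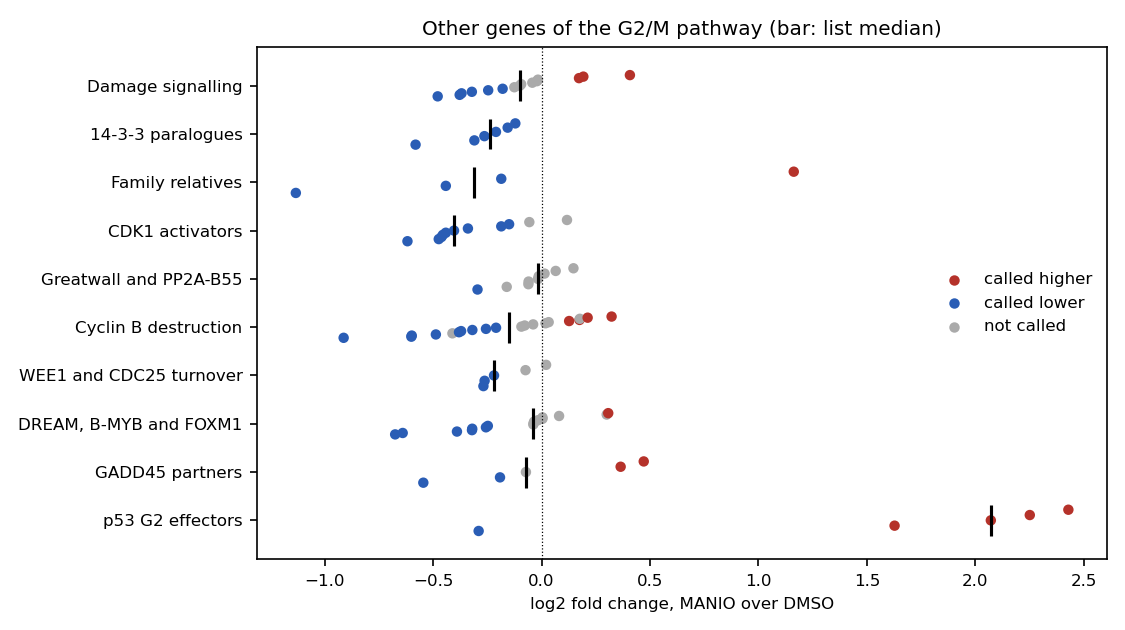
Log2 fold change in MANIO over DMSO (horizontal axis) of the tested genes of 10 pathway lists, 1 point per gene, coloured by call, with a bar at each list's median. The CDK1 activators (median -0.40) and the 14-3-3 paralogues (-0.24) lie left of 0, the Greatwall list sits at 0 (-0.02), and 4 of 5 p53 effectors lie at 1.63 or above.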

How the data were processed

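Deposited values were whole-number, unnormalized counts for each Ensembl gene in 1 table, per the file headers and the values. STAR 2.5.3a, HTSeq, DESeq2, FastQC 1.3 and GRCh38 are named, without roles, in the notes the submitters gave on processing. Per the labels' protocols, libraries were made with an Illumina TruSeq RNA kit; that kit does not mark strand. The design text calls the replicates biological. Annotation release and handling of multi-mapping reads: not given in the sources used here. Total counts were 27945196 to 32509020 per library, more than the labels' approximate raw reads per sample, so what 1 count stands for is uncertain.

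In R 4.3.3, genes kept by filterByExpr (15712) were scaled by TMM and tested with edgeR 4.0.16 (quasi-likelihood F test, group alone, robust), with Benjamini-Hochberg adjustment over all genes tested. Log2 fold changes are MANIO over DMSO. Each edgeR SE is the absolute log2 fold change divided by the square root of the F statistic, not a separate estimate. Levels are TMM-scaled CPM (counts per 1e6). Ratios of 7 gene pairs, with 0.5 added to each count, were tested by exact permutation over 70 assignments. The fit was tested on simulated data. Alternatives were other scalings and filters, DESeq2 1.42.0, glmTreat, a replicate block and single libraries left out. Positions, exon lengths and exon overlaps are from GENCODE release 29 on GRCh38 (58039 of 58302 identifiers matched), and promoter windows from RefSeq. A planned protein comparison was not made. Genes named from the lists are those called with the smallest p (up to 4 per list), plus exceptions of 3 or fewer. Named outside this rule were YWHAH, YWHAG, NFYA, NFYB, NFYC, LIN54, ANAPC13, ANAPC2, ANAPC5 and CDC16. For each member the 3 genes of most similar profile are named, except 1 that is not reported here. The members and lists were chosen with earlier results of these data known. Within groups, pairs of libraries gave a chi-square over its degrees of freedom of 3.60 to 24.4, so none were copies. Pairs with DMSO replicate 1 gave 20.7 to 24.4, other DMSO pairs 3.60 to 10.3 and MANIO pairs 4.35 to 14.8. DMSO replicate 1 thus differed most from its group.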

Additional observations from a re-analysis of the deposited data

Results flagged for a closer look

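In 38 groups of 4 values (levels of the 10 genes, the 7 ratios, total count and mitochondrial share), 5 held 1 library far from the other 3, where chance gives about 1 in 20. For CDC25C, DMSO replicate 4 was low (31.1 CPM, against 34.0 to 34.4 CPM in the others) and so was MANIO replicate 3 (23.9 CPM, against 26.9 to 27.1 CPM). For PKMYT1, MANIO replicate 4 was low (49.4 CPM, against 64.6 to 66.7 CPM). For the log2 ratio of CCNB2 to CDK1, DMSO replicate 2 was high (-0.88, against -1.08 to -1.06). The mitochondrial share was high in DMSO replicate 1 (7.48%, against 4.82% to 5.21%). Without DMSO replicate 1 the counts of called members were again 3 higher and 5 lower.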

How the results depend on the processing

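The counts of 3 members higher and 5 lower were the same under RLE and upper-quartile scaling, without mitochondrially encoded genes, without a filter, with DESeq2, and in each of 8 fits with 1 library left out. Against a 1.2-fold limit they were 2 higher and 2 lower, genes called over the whole table went from 8574 to 4132, and the pathway lists from 15 to 7 higher and from 45 to 18 lower. Leaving out 1 library gave 7818 to 8622 called genes and, in the lists, 11 to 15 higher and 42 to 45 lower. PKMYT1 reversed without DMSO replicate 2 (0.0466) and without MANIO replicate 4 (0.0423), neither called (edgeR adjusted p over its alternatives 0.23 to 1). With 1 library left out, the shift in log2 ratio ran from -0.21 to -0.15 for CCNB1 over CCNB2, from -0.72 to -0.59 for CCNB1 over CDK1, from -0.54 to -0.43 for CCNB2 over CDK1, from 0.9964 to 1.12 for GADD45A over GADD45B, from 0.0261 to 0.0783 for CDC25C over WEE1, from -0.48 to -0.21 for WEE1 over PKMYT1 and from -6.3e-04 to 0.11 for CDC25B over CDC25C, the lowest of these without DMSO replicate 1. Without DMSO replicate 2 the adjusted exact permutation p was 0.04 for the first 5 of these pairs, and over their alternatives it ran from 0.04 to 0.63. That 0.04 arose because CDC25C over WEE1 then also reached the smallest possible p. The shifts of the others among these pairs were smaller than with all libraries. Deviations of same-numbered libraries correlated weakly across genes (0.0385 to 0.163). Those of differently numbered libraries ran from -0.31 to 0.29, a range that holds these values. Deviations were centred within each group, so this range cannot decide whether the numbers pair the libraries. The main fit did not pair them. With the replicate number as a block, 8845 genes were called, with 3 members higher and 5 lower, and the exact permutation test of a ratio could not go below p = 0.125. The block lowered the SE of GADD45A (0.0856 to 0.0565), CCNB1 (0.0653 to 0.0498) and PKMYT1 (0.126 to 0.0979). It slightly raised that of CDC25B (0.0579 to 0.0584) and CDC25C (0.0631 to 0.0634). Between 438 and 551 counts lay behind each GADD45B value, the least of the 10 genes. Genes such as WEE2, CCNA1 and RPRM were too low to be tested.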
